A study of Mus musculus with 8 samples.

Results

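T, Foxa1 and Foxa2, 3 transcription factor genes of the notochord, were followed through the cells of the mouse intervertebral disc. They were chosen by gene name, and all 3 were present among the 31053 genes of the count tables of both ages. T encodes brachyury, a T-box factor that mesoderm and notochord cells need during development and that marks notochord-derived cells. Foxa1 and Foxa2 encode forkhead factors that open chromatin and act in the node, the notochord, the floor plate and the endoderm, and Foxa2 is also known in cartilage for its part in chondrocyte hypertrophy. The nucleus pulposus (NP), the gel core of the disc, comes from the notochord, and hedgehog ligands made by the notochord act on the cells around it.

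Whole discs of the lumbar levels (L1 to L6) and the tail (T5 to T9) were digested to single cells, whose RNA was sequenced on a droplet platform. All mice were Tagln-CreERt2;R26tdTomato, with a tamoxifen-inducible Cre driven by Tagln, the gene of the smooth muscle actin-binding protein transgelin, and the red fluorescent reporter tdTomato at Rosa26. All received tamoxifen at postnatal day 5, so there was no group without it. Discs were taken at 8 weeks in 1 group and at postnatal day 10 (P10) in the other; GEO lists 4 samples for each age. The study asked about the contribution of Tagln-expressing progenitors to the NP. Each age was deposited as 1 matrix with no map from cells to its samples, so each age counts as 1 library. A difference of age therefore cannot be told apart from a difference of library, and nothing is tested between the ages. Intervals below are exact 95% intervals for counting error only.

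The 8-week matrix held 115097999 unique molecular identifiers (UMIs, counts of distinct RNA molecules) in 7597 barcodes, and the P10 matrix 143203550 UMIs in 7690 barcodes. After filtering, 6343 cells of 8 weeks and 6992 cells of P10 were kept. The 2 libraries shared 12 barcodes. Clusters were named from marker genes, with T, Foxa1 and Foxa2 left out of the clustering. Levels are summed UMIs of a group of cells scaled to 1000000 gene UMIs of the same cells (CPM). Doublet calling marked only 0.100% of P10 cells, so it has not worked there, and cells carrying at least 10 UMIs of the defining markers of another class were followed separately.

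T lies on chromosome 17 at positions 8434423 to 8442496 of the plus strand (GENCODE annotation, GRCm38, the build of the files). Foxa1 lies on chromosome 12 at 57540628 to 57546916 of the minus strand, and Foxa2 on chromosome 2 at 148042877 to 148046969 of the minus strand. The principal transcripts have 8, 2 and 3 exons in the order T, Foxa1, Foxa2, and none of the 3 genes overlaps another annotated gene. The 250 bases before each start are shown because the 3 genes, often grouped as notochord factors, were found in different disc cells below. The sequences are from RefSeq (GRCm38.p6), where all 3 symbols matched; of 3 starts listed for Foxa2 the one at the start of the principal GENCODE transcript was taken. The windows are chr17:8434173-8434422 on the plus strand for T, chr12:57546112-57546361 on the minus strand for Foxa1 and chr2:148046970-148047219 on the minus strand for Foxa2. The T and Foxa2 windows end at the start of the gene. The Foxa1 window lies inside the annotated gene, since a longer transcript starts upstream, and its last 10 bases are in the first exon of the principal transcript.
T: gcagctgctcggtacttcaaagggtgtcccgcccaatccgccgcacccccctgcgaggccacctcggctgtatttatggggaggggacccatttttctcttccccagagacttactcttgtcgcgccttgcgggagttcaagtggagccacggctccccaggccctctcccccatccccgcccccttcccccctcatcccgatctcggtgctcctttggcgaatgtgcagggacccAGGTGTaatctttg
Foxa1: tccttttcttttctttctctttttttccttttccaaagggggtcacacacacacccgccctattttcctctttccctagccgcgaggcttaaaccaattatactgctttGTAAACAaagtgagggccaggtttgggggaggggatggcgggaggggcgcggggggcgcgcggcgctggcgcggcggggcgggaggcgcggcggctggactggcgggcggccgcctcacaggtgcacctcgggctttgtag
Foxa2: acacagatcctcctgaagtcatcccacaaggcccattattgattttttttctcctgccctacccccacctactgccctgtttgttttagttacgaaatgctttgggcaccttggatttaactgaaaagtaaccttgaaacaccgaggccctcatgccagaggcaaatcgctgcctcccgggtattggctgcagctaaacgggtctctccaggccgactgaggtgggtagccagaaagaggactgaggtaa
Capitals mark a match to a searched motif on either strand. The motifs were the forkhead core TGTTTAC, the T-box core AGGTGT, its longer form AGGTGTGA, which overlaps it, and the GLI site TGGGTGGTC. The Foxa1 window holds 1 forkhead core, which is found in 3.17% of 32851 RefSeq windows of this length, and the T window holds 1 T-box core, found in 11.8% of them. None of the 4 motifs was in the Foxa2 window. A match describes these letters only and is not a binding site. The GC content was 62.8% for T, 62.0% for Foxa1 and 50.8% for Foxa2, against a median of 52.4% over all windows.

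NP-like cells, the notochord-derived class, numbered 2302 of the 8-week cells (36.3%) and 306 of the P10 cells (4.38%). They formed clusters 3, 5, 8, 12 and 22, each with at least 6 of the 8 NP markers. Of these markers Car3, a carbonic anhydrase, stood at 18274 CPM at 8 weeks and 20849 CPM at P10, and the simple-epithelium keratin Krt8 at 2828 CPM at 8 weeks and 3561 CPM at P10. Krt15, also on the list, was nearly absent, at 1.64 CPM at 8 weeks and 1.61 CPM at P10. Cluster 12 was led by mitosis genes such as Cenpf and Mki67. Clusters 3 and 8 were almost wholly of 8 weeks and cluster 22 almost wholly of P10, and a cluster of mostly 1 library may reflect that library.

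T was an NP gene at both ages. NP-like cells held 64924 T UMIs at 8 weeks, or 1480 CPM (1468 to 1491), and 8951 at P10, or 1309 CPM (1282 to 1336). They held 98.0% of all T UMIs at 8 weeks while making up 36.3% of cells, and 94.6% at P10 while making up 4.38%. At full depth 2296 of 2302 NP-like cells had a T UMI at 8 weeks and all 306 at P10, with median depths of 15454.5 and 17598 UMIs. The 6 cells without one were shallow, with a median of 1414.5 UMIs. At an equal 2000 UMIs a cell, T was still found in 92.5% of NP-like cells (91.3 to 93.6%) at 8 weeks and in 87.5% (83.2 to 91.1%) at P10.

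**Figure D1:**
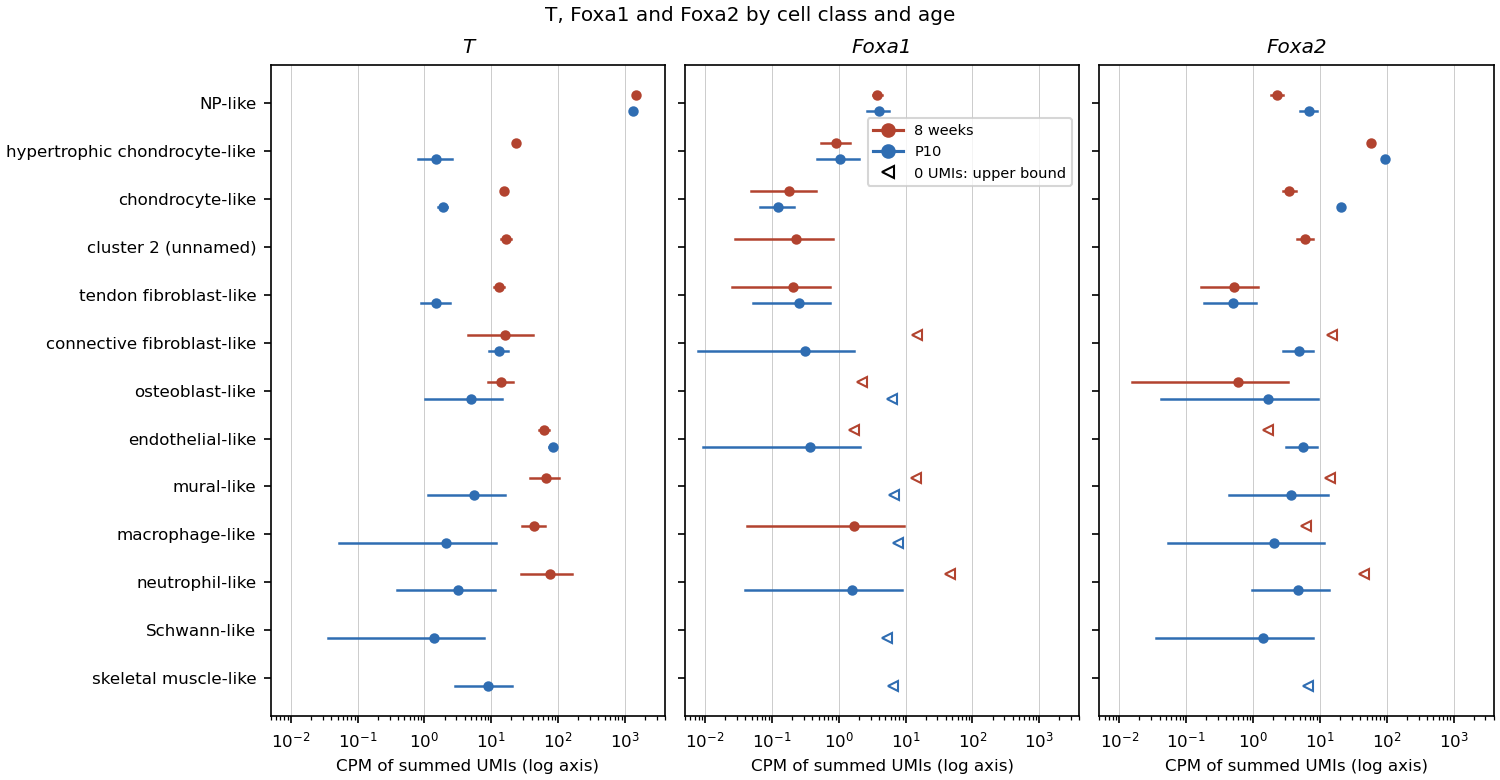
Level of T, Foxa1 and Foxa2 (CPM of summed UMIs, log axis) in each cell class with at least 20 cells, at 8 weeks (red) and P10 (blue); lines are exact 95% Poisson intervals, and an open triangle is the upper bound where no UMI was found. T is above 1300 CPM in NP-like cells at both ages, and Foxa2 is highest in hypertrophic chondrocyte-like cells.

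Outside the NP-like class T was low, and its level there differed between the libraries. At 8 weeks the other classes with at least 20 cells lay between 13.0 CPM in tendon fibroblast-like cells and 75.3 CPM in neutrophil-like cells. At P10 they lay between 1.41 CPM in Schwann-like cells and 82.9 CPM in endothelial-like cells. Macrophage-like and neutrophil-like cells together, blood cells that should lack T, stood at 47.3 CPM (32.3 to 66.7; 16 of 105 cells, median depth 5318 UMIs) at 8 weeks and 2.70 CPM (0.557 to 7.89; 3 of 177 cells, median depth 4341 UMIs) at P10. Free RNA in droplets can give such a background. At 8 weeks no class other than NP-like had an interval wholly above that of these blood cells, and at P10 endothelial-like cells did, as did connective fibroblast-like cells at 12.9 CPM, with 39 of their 42 T UMIs in 2 cells. Of the 32 T UMIs of the 8-week blood cells, 15 were in 1 macrophage-like cell. Leaving out every cell with 10 or more T UMIs at 8 weeks, blood cells stood at 25.7 CPM (14.95 to 41.1) and endothelial-like cells at 21.1 CPM (15.3 to 28.5). Chondrocyte-like cells had 15.7 CPM (14.1 to 17.4) at 8 weeks and 1.87 CPM (1.62 to 2.15) at P10, the second within the interval of the blood cells.

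The UMIs outside the NP-like class were partly held by very few cells. At 8 weeks 17 of 4041 other cells carried 10 or more T UMIs and held 321 of the 1294 T UMIs there. Of these cells 9 were hypertrophic chondrocyte-like, and they held 182 of the 459 T UMIs of that class. At P10 the same was true of 9 of 6686 cells, which held 300 of 507. The high value of P10 endothelial-like cells came from 4 such cells with 217 of the 223 T UMIs; their median was 156.5 keratin UMIs (Krt8, Krt18 and Krt19), against 0 in the other 116 cells. With a doublet score limit of 0.25, the T level of P10 endothelial-like cells was 2.29 CPM.

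In 3 of the 4 other classes compared between ages T was higher at 8 weeks, and the level in blood cells was also higher there. The log2 ratio of 8 weeks to P10 was 3.97 (3.18 to 4.89) in hypertrophic chondrocyte-like cells, where 26.3% of all genes were past 2-fold higher and 5.33% lower. It was 3.07 (2.82 to 3.33) in chondrocyte-like cells (27% higher, 6.34% lower) and 3.12 (2.399 to 3.92) in tendon fibroblast-like cells (15.7% higher, 7.2% lower). In endothelial-like cells it was -0.43 (-0.75 to -0.12), where 6.87% of genes were past 2-fold higher and 2.79% lower. The part of free RNA in these ratios was not tested. Per 1000 UMIs of Car3, Krt8, Krt18 and Krt19 together, T had 65.1 UMIs in NP-like cells of 8 weeks. Over the other classes of 8 weeks the same ratio lay between 12.9 in osteoblast-like cells and 214.3 in neutrophil-like cells, with 152.7 in chondrocyte-like, 82.6 in hypertrophic chondrocyte-like and 49.5 in macrophage-like cells. These sums include the few cells with 10 or more T UMIs.

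**Figure D2:**
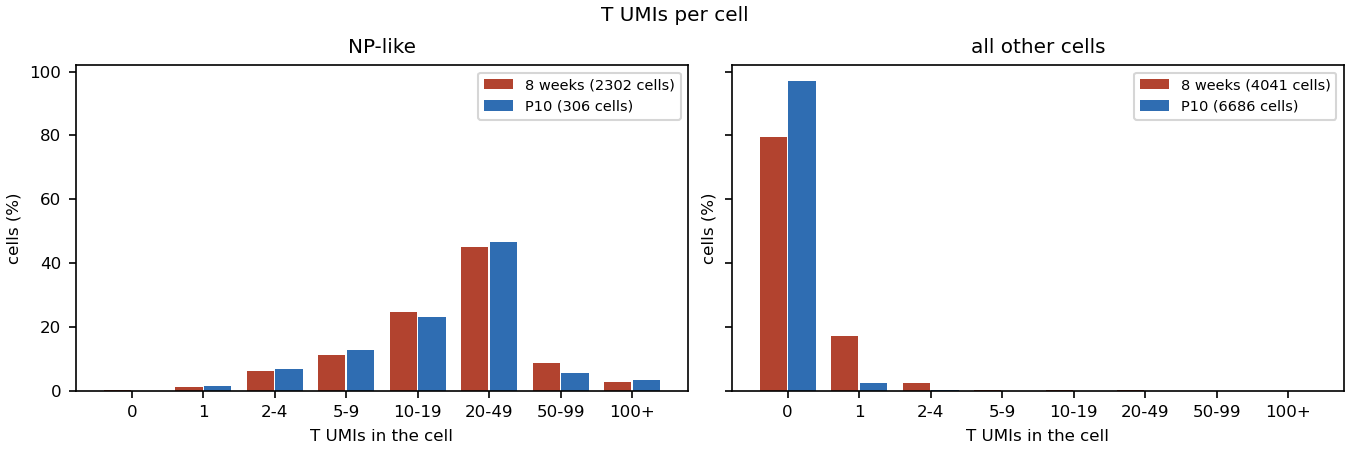
Share of cells (percent) by the number of T UMIs in the cell, for NP-like cells (left) and all other kept cells (right), at 8 weeks (red) and P10 (blue). The most common bin of NP-like cells is 20 to 49 UMIs at both ages, while 79.6% of other cells at 8 weeks and 97.1% at P10 have none.

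Within the NP-like class T varied between clusters by less than its distance from other classes. A typical NP-like cell held a median of 22 T UMIs at 8 weeks and 21 at P10. Per cell, the 5th and 95th percentiles of the T level were 583 and 3076 CPM at 8 weeks and 439 and 2414 CPM at P10. At 8 weeks cluster 3 stood at 1789 CPM (1761 to 1817), cluster 8 at 1660 CPM (1625 to 1697), cluster 5 at 1399 CPM (1385 to 1413) and the cycling cluster 12 at 1117 CPM (1085 to 1149). At P10 cluster 22 stood at 1409 CPM (1373 to 1446), cluster 12 at 1161 CPM (1110 to 1213) and cluster 5 at 1137 CPM (1071 to 1207). The order at 8 weeks is wider than counting error at every step, and at P10 clusters 12 and 5 overlap. Cluster 3 was also the shallowest, with a median of 8986 UMIs at 8 weeks, against 19708.5 in cluster 5; the part of depth in this order was not tested. The log2 ratio of T to its level in cluster 5 was 0.35 (0.33 to 0.38) in cluster 3, where 2.3% of genes were past 2-fold higher and 6.24% lower. It was -0.32 (-0.37 to -0.28) in cluster 12, where 6.5% were past 2-fold higher and 2.33% lower. These clusters were built from all other variable genes of the same cells, so their differences describe the cells and are no test.

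**Figure D3:**
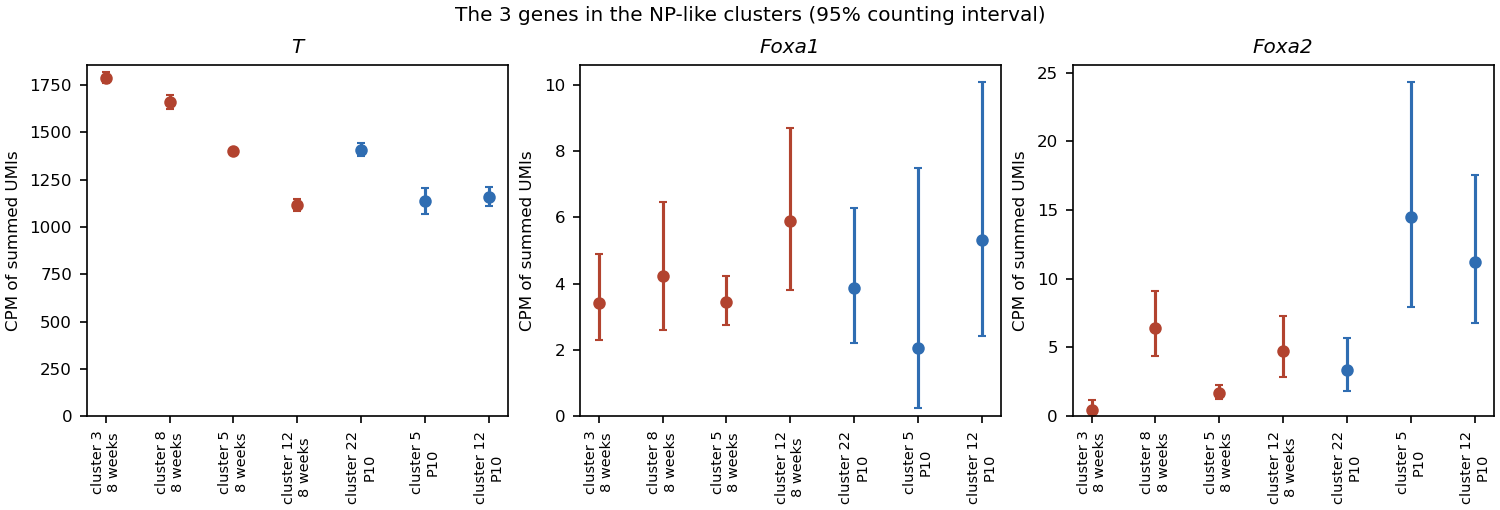
CPM of T, Foxa1 and Foxa2 in the NP-like clusters with at least 20 cells of that age, 8 weeks (red) left of P10 (blue), with exact 95% Poisson intervals. T is lowest in cluster 12 at 8 weeks (1117 CPM), and Foxa2 at 8 weeks is highest in cluster 8 (6.43 CPM).

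Foxa1 was also highest in NP-like cells, with far fewer UMIs than T. It had 165 UMIs at 8 weeks, or 3.76 CPM (3.21 to 4.38), and 27 at P10, or 3.95 CPM (2.60 to 5.74). Its UMIs were in 145 of 2302 cells at 8 weeks (6.30%, 5.34 to 7.37%) and in 19 of 306 at P10 (6.21%, 3.78 to 9.53%). The same share in the shallower blood cells was 0.952% at 8 weeks and 0.565% at P10, 1 cell each. Their level was 1.48 CPM (0.037 to 8.23) at 8 weeks and 0.901 CPM (0.023 to 5.02) at P10, intervals that overlap those of NP-like cells. Thinned to 2000 UMIs, 0.816% and 0.337% of NP-like cells kept a UMI at 8 weeks and P10. In blood cells 1.18% and 0.694% did, again 1 cell each, so at this depth the share says little. Blood cells thus do not set a lower background for Foxa1. All cells other than NP-like together had 27 Foxa1 UMIs or 0.412 CPM (0.272 to 0.600) at 8 weeks. At P10 they had 28 UMIs or 0.207 CPM (0.138 to 0.300). Both intervals lie below those of NP-like cells. Most positive cells held 1 UMI (129 of 145 at 8 weeks, 14 of 19 at P10), and none held more than 3.

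NP-like cells held 85.9% of all Foxa1 UMIs at 8 weeks and 49.1% at P10. Hypertrophic chondrocytes are the enlarged cartilage cells known for collagen X. The cells named after them had a Col10a1 UMI in 220 of 991 at 8 weeks (22.2%) and in 170 of 223 at P10 (76.2%), so most of the 8-week cells of this name had none. Chondrocyte-like cells had one in 15.4% at 8 weeks and 12.2% at P10. For Foxa1, hypertrophic chondrocyte-like cells had 18 UMIs or 0.922 CPM (0.546 to 1.46) at 8 weeks and 9 UMIs or 1.04 CPM (0.476 to 1.98) at P10. Chondrocyte-like cells had 4 and 13 UMIs, or 0.177 and 0.124 CPM, at 8 weeks and P10. The log2 ratio of NP-like to hypertrophic chondrocyte-like cells was 2.03 (1.32 to 2.82) at 8 weeks and 1.92 (0.79 to 3.197) at P10. Over all genes with at least 100 UMIs, 19.9% were past 2-fold higher in NP-like cells in that comparison at 8 weeks and 19.8% at P10. Foxa1 had only 27 and 9 UMIs in NP-like and hypertrophic chondrocyte-like cells of P10 and so is not among the genes counted there. Among the NP-like clusters Foxa1 lay between 3.42 and 5.90 CPM at 8 weeks and between 2.07 and 5.32 CPM at P10. It was highest in the cycling cluster 12 at both ages; the log2 ratio of cluster 12 to cluster 5 was 0.78 (0.077 to 1.43) at 8 weeks, from 25 and 89 UMIs.

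Foxa2, in contrast, was mainly a cartilage transcript in these discs. In hypertrophic chondrocyte-like cells it had 1139 UMIs at 8 weeks, or 58.3 CPM (55.0 to 61.8), and 810 at P10, or 93.7 CPM (87.3 to 100.4). UMIs were found in 304 of 991 of these cells at 8 weeks and in 181 of 223 at P10, at median depths of 18662 and 40194 UMIs, and up to 21 and 18 in a cell. Thinned to 2000 UMIs, 7.74% of these cells kept a Foxa2 UMI at 8 weeks and 18.3% at P10. NP-like cells held 7.26% of all Foxa2 UMIs at 8 weeks and 1.51% at P10. The log2 ratio of NP-like to hypertrophic chondrocyte-like cells was -4.68 (-4.99 to -4.38) at 8 weeks and -3.77 (-4.23 to -3.34) at P10, where 13.7% and 12.1% of all genes were past 2-fold lower. T was at log2 5.98 and 9.77 in the same comparison, with its level in hypertrophic chondrocyte-like cells near the background.

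Hypertrophic chondrocyte-like cells were mainly clusters 0 and 9 at 8 weeks (738 and 241 cells) and cluster 23 at P10 (222 cells). Cluster 23 also held 12 cells of 8 weeks, and cluster 0 held 1 cell of P10. Foxa2 was not even among these clusters. Cluster 0, with Panx3 among its leading genes, had 66.1 CPM (62.1 to 70.2), and cluster 9, led by the bone matrix gene Ibsp, had 14.5 CPM (10.7 to 19.2). Cluster 23, led by Col10a1 and the hedgehog ligand gene Ihh, had 94.04 CPM (87.7 to 100.8) at P10. Chondrocyte-like cells averaged 3.51 CPM (2.78 to 4.37) at 8 weeks and 21.04 CPM (20.2 to 21.9) at P10. The log2 ratio of hypertrophic to chondrocyte-like cells was 4.06 (3.73 to 4.404) at 8 weeks, where 4.98% of genes were past 2-fold higher and 7.68% lower. It was 2.15 (2.04 to 2.27) at P10, where 7.12% were past 2-fold higher and 14.3% lower. The clusters of chondrocyte-like cells ran from 0.526 to 14.2 CPM at 8 weeks and from 3.49 CPM in cluster 27, marked by the joint gene Gdf5, to 38.2 CPM in cluster 18 at P10.

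The split between these classes moved with the clustering, which matters for their ages. With other clusterings, chondrocyte-like cells of 8 weeks stood between 2.39 and 22.9 CPM and those of P10 between 19.8 and 26.7 CPM. Over both cartilage classes together Foxa2 was at 29.0 CPM in 2413 cells of 8 weeks and 26.6 CPM in 5163 cells of P10, a log2 ratio of 0.12 (0.027 to 0.22). With the unnamed cluster 2 of 8 weeks added, which had 6.08 CPM, the ratio was -0.086 (-0.18 to 0.0090). The direction of this ratio turned with cluster 2, and both values were close to 0. Cluster 2 met 6 tendon fibroblast, 3 connective fibroblast and 3 hypertrophic chondrocyte markers. The second ratio is therefore not one of cells named as cartilage only. Foxa2 UMIs were in 352 of 2413 cells at 8 weeks and in 1333 of 5163 at P10, at unequal depths. Thinned to 5000 UMIs, the shares were 6.86% (5.86 to 7.98%) at 8 weeks and 8.95% (8.18 to 9.77%) at P10.

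Foxa2 increased with the 2 hypertrophy genes in both libraries. In cartilage cells with no Col10a1 UMI, Foxa2 was at 18.1 CPM (16.6 to 19.6) at 8 weeks and 19.98 CPM (19.1 to 20.9) at P10. In cells with 100 or more Col10a1 UMIs it was at 126.6 CPM (111.4 to 143.2; 74 cells) at 8 weeks and 100.2 CPM (89.0 to 112.3; 67 cells) at P10. In cells with no Ihh UMI it was at 11.7 CPM at 8 weeks and 19.5 CPM at P10, and in cells with 5 or more at 143.6 CPM (131.9 to 156.0) at 8 weeks and 78.1 CPM (71.9 to 84.7) at P10. The steps between were ordered too: with 1 to 9 and 10 to 99 Col10a1 UMIs, Foxa2 was at 40.2 and 96.3 CPM at 8 weeks and at 34.4 and 85.2 CPM at P10. Cells with many such UMIs were also deeper (27630.5 against 14771 UMIs at the median for Col10a1 at 8 weeks), which CPM scales for. Ihh, unlike Foxa2, was among the markers that named the hypertrophic class, as was Col10a1.

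Foxa3, the third FOXA gene, known in liver and gut, was also mainly in cartilage and was more abundant there than Foxa2. It was less confined to hypertrophic chondrocyte-like cells. Chondrocyte-like cells held 34.8% of all Foxa3 UMIs and 5.74% of all Foxa2 UMIs at 8 weeks, and 81.4% and 71.0% at P10. In hypertrophic chondrocyte-like cells it had 125.3 CPM at 8 weeks and 250.7 CPM at P10. In chondrocyte-like cells it had 63.3 CPM at 8 weeks and 103.7 CPM at P10. In NP-like cells it had 0.570 CPM at 8 weeks and 10.7 CPM at P10. The last value rested on few cells: 53 of its 73 UMIs were in 26 cells carrying markers of another class. In cartilage cells with 100 or more Col10a1 UMIs, Foxa3 reached 253.7 CPM at 8 weeks and 295.7 CPM at P10. With no Col10a1 UMI it was at 81.0 CPM at 8 weeks and 102.4 CPM at P10. With 1 to 9 it was at 84.3 CPM at 8 weeks and 132.0 CPM at P10.

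**Figure D4:**
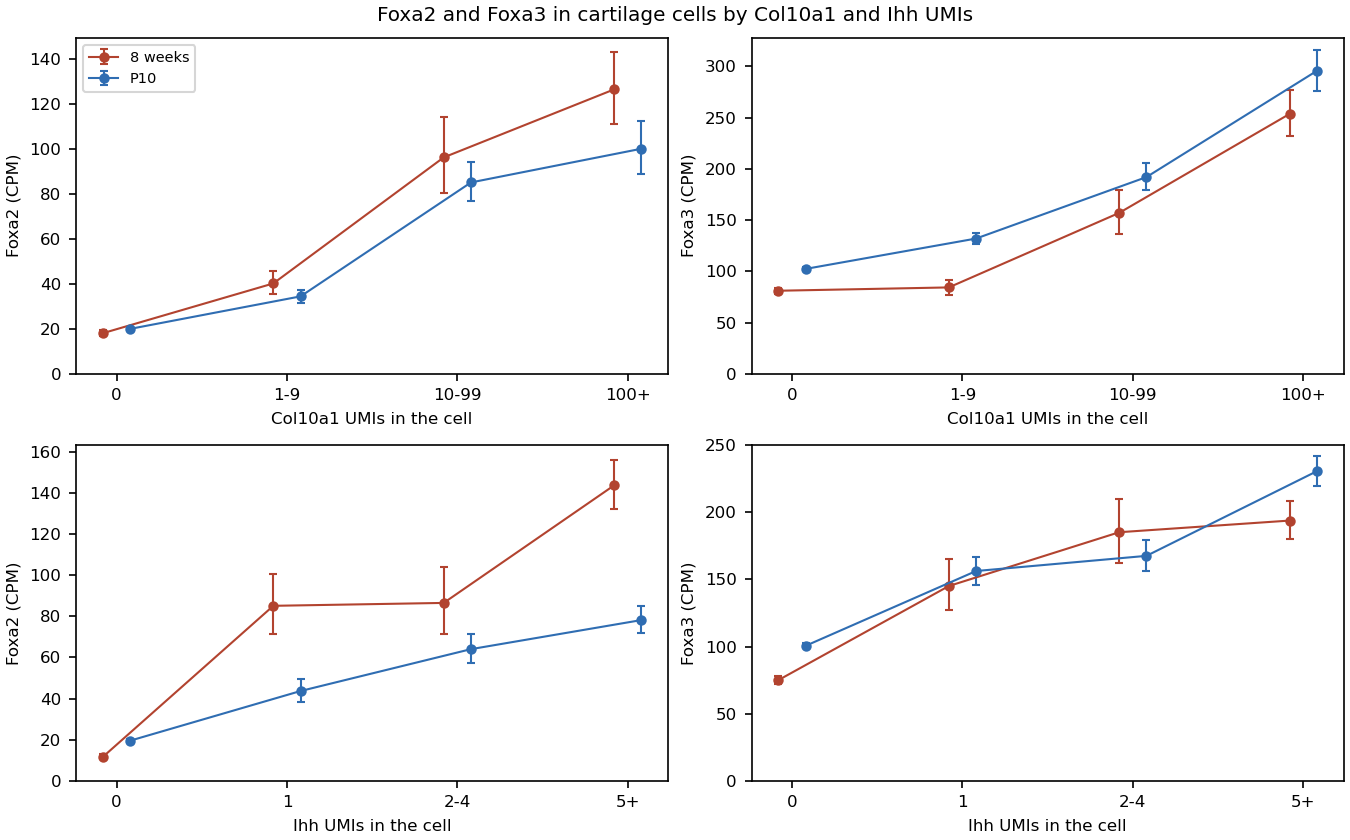
CPM of Foxa2 (left) and Foxa3 (right) in hypertrophic and other chondrocyte-like cells binned by their UMIs of Col10a1 (top) or Ihh (bottom), at 8 weeks (red) and P10 (blue), with exact 95% Poisson intervals. By Col10a1, Foxa2 is lowest in cells with no Col10a1 UMI (18.1 CPM at 8 weeks, 19.98 CPM at P10) and highest in those with 100 or more (126.6 and 100.2 CPM).

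In NP-like cells Foxa2 was scarce. It had 100 UMIs in 80 of 2302 cells at 8 weeks, or 2.28 CPM (1.85 to 2.77), and 47 UMIs in 25 of 306 cells at P10, or 6.87 CPM (5.05 to 9.14). Cells that were neither NP-like nor cartilage had 2.52 CPM (1.92 to 3.25) at 8 weeks and 2.10 CPM (1.53 to 2.81) at P10, but 53 of their 59 Foxa2 UMIs at 8 weeks were in the unnamed cluster 2. Without cluster 2 these cells had 6 UMIs or 0.407 CPM (0.149 to 0.886) at 8 weeks, below the NP-like level. Thinned to 2000 UMIs in a random draw, 0.408% of NP-like cells kept a Foxa2 UMI at 8 weeks and 0 of 297 at P10. Blood cells had a Foxa2 UMI in 0 of 105 cells at 8 weeks, which by the limit of 3 counts allows up to 2.86% of cells with a UMI at a median depth of 5318 UMIs. They had 4 UMIs in 3 of 177 cells at P10.

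The P10 value rested on few cells. In 26 of the 306 NP-like cells of P10, at least 10 UMIs of defining markers of another class were found, and these held 29 of the 47 Foxa2 UMIs (30.6 CPM). They had a median doublet score of 0.253, against 0.0258 in the other 280 cells, and a T level of 696 CPM, against 1408 CPM. Without them Foxa2 was at 3.06 CPM (1.81 to 4.83) at P10. At 8 weeks 23 of 2302 cells were of this kind, and without them the level was 2.22 CPM (1.80 to 2.71).

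Foxa2 was uneven among NP-like clusters of 8 weeks. Cluster 8 had 6.43 CPM (4.4003 to 9.08; 25 of 237 cells), the cycling cluster 12 4.72 CPM (2.89 to 7.29; 16 of 136 cells), cluster 5 1.70 CPM (1.24 to 2.28; 35 of 1074 cells) and cluster 3 0.456 CPM (0.124 to 1.17; 4 of 853 cells). Clusters 8 and 12 do not differ beyond their intervals, and both stood above clusters 5 and 3. The log2 ratio of cluster 8 to cluster 5 was 1.92 (1.21 to 2.61) for Foxa2 and 0.25 (0.21 to 0.28) for T; 1.39% of genes were past 2-fold higher in that comparison and 4.42% lower, and Foxa2, with 32 and 44 UMIs, was under its minimum.

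Between the ages, the 3 genes gave different ratios in NP-like cells. T had a log2 ratio of 8 weeks to P10 of 0.18 (0.15 to 0.21). The median of all 11326 genes compared was itself 0.35, and relative to that median T was at -0.18; with TMM scaling, which trims extreme genes, it was at -0.15. The direction for T therefore depended on the scaling, and neither value came near 2-fold. Foxa1 was at -0.070 (-0.66 to 0.57), an interval that covers both a lower and a higher level.

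Foxa2 was at -1.59 (-2.11 to -1.06), past 2-fold lower at 8 weeks, which was true of 2.93% of all genes. Without the cells that carried markers of another class the ratio was -0.46 (-1.20 to 0.35), and with a doublet score limit of 0.25 it was -0.96 (-1.57 to -0.30). Within cluster 5 it was -3.09 (-3.99 to -2.11), where P10 has 37 cells and 14 UMIs and where 20.1% of genes were past 2-fold higher and 3.22% lower, and within cluster 12 it was -1.25 (-2.23 to -0.26), where 12.2% were past 2-fold higher and 2.03% lower. Without cells carrying other markers it was -1.38 (-3.04 to 0.95) in cluster 5 and 0.36 (-1.10 to 2.13) in cluster 12, and both intervals include 0. The part of these cells in the lower Foxa2 of 8 weeks was not tested further.

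**Figure D5:**
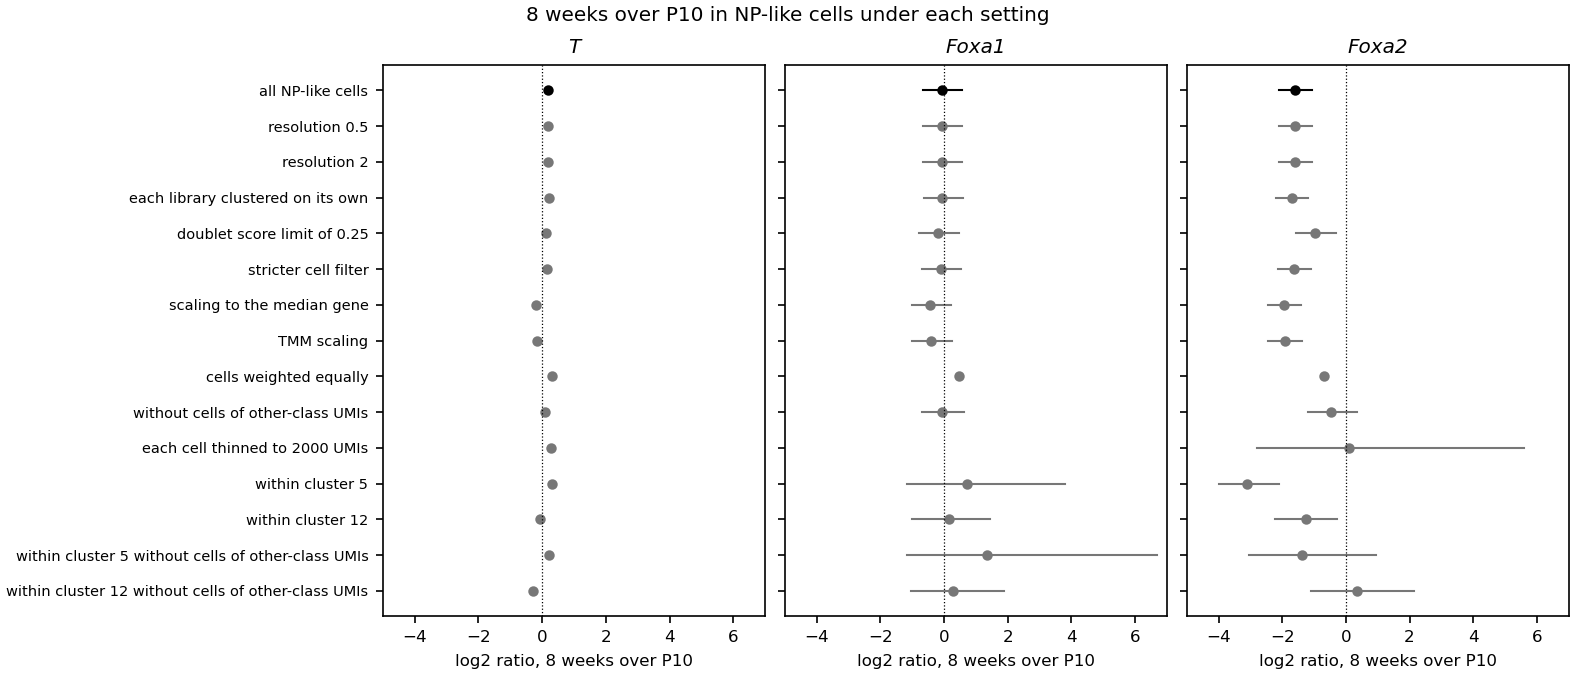
Log2 ratio of the level at 8 weeks to that at P10 in NP-like cells for T, Foxa1 and Foxa2, with all NP-like cells (black) and under each other setting (grey); lines are exact 95% intervals where one could be computed. T stays within 0.31 of 0 on the log2 scale, Foxa1 intervals cross 0, and Foxa2 lies at -1.59 with all NP-like cells and at -0.46 without cells carrying markers of another class.

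The reporter gave a readout that neither the gene names nor the clustering used. Cells were called reporter-high with at least 10 UMIs of WPRE4, a sequence counted with TDT (tdTomato) in the authors' exogenous reference. At 8 weeks 1287 NP-like cells were reporter-high and 1015 reporter-low, with median depths of 15449 and 15487 UMIs, and at P10 204 and 102, with median depths of 18356.5 and 14751 UMIs. T was at 1526 CPM in reporter-high and 1412 CPM in reporter-low cells at 8 weeks, a log2 ratio of 0.11 (0.089 to 0.13). At P10 it was at 1365 CPM in reporter-high and 1170 CPM in reporter-low cells, a ratio of 0.22 (0.15 to 0.29). With 1 TDT UMI as the criterion the ratio was -0.019 at 8 weeks and 0.38 at P10.

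Foxa1 was at 3.60 CPM in reporter-high and 4.00 CPM in reporter-low cells at 8 weeks, a log2 ratio of -0.15 (-0.61 to 0.31), and at -0.32 (-1.55 to 1.01) at P10. Foxa2 was at 1.72 CPM in reporter-high and 3.097 CPM in reporter-low cells at 8 weeks, a ratio of -0.85 (-1.45 to -0.25). At P10 it was at 7.37 CPM in reporter-high and 5.64 CPM in reporter-low cells, a ratio of 0.39 (-0.62 to 1.51), and -0.68 (-2.18 to 0.92) without cells carrying markers of another class. None of the 3 genes was past 2-fold at 8 weeks, nor was T at P10, where Foxa1 and Foxa2 were under the minimum and could not be called. Of all genes, 0.81% were past 2-fold lower and 0.099% higher at 8 weeks, and 0.182% lower and 0.347% higher at P10. Cells of 1 library are not replicates, and the difference between the ages was not tested.

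T was found in nearly every NP-like cell, so its level was compared between cells with and without a UMI of each FOXA gene. At 8 weeks T was at 1377 CPM in 145 cells with a Foxa1 UMI and 1493 CPM in 2157 cells without, a log2 ratio of -0.12 (-0.15 to -0.080). At P10 it was at 1460 CPM in 19 cells with a Foxa1 UMI and 1283 CPM in 287 without, a ratio of 0.19 (0.10 to 0.27). For Foxa2 the T ratio was -0.25 (-0.30 to -0.20) at 8 weeks, with 80 cells, and 0.14 (0.072 to 0.21) at P10, with 25 cells. Cells with a UMI of a rare gene are deeper, by 26415.5 against 15184.5 UMIs at the median for Foxa2 at 8 weeks. In cells with at least 10000 UMIs the 4 ratios were -0.081, 0.20, -0.23 and 0.16 in the order given.

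Foxa1 and Foxa2 were found together in 15 NP-like cells at 8 weeks and 7 at P10. Foxa1 was at 6.28 CPM in cells with a Foxa2 UMI and 3.57 CPM in cells without at 8 weeks, a log2 ratio of 0.81 (0.039 to 1.51). At P10 it was at 8.12 CPM in cells with and 2.80 CPM in cells without a Foxa2 UMI, a ratio of 1.54 (0.31 to 2.73), from 12 and 15 UMIs. The P10 cells with a Foxa2 UMI had a median depth of 54833 UMIs, against 16596 in those without. Of these 25 cells with a Foxa2 UMI, 10 carried markers of another class. In cells with at least 10000 UMIs the ratio was 0.78 (0.0096 to 1.48) at 8 weeks and 1.54 (0.30 to 2.76) at P10. Shh, the notochord's hedgehog ligand gene, had 54 UMIs in 20 NP-like cells at 8 weeks, 18 of them in cluster 5, and 5 UMIs in 4 cells at P10. In these 20 cells Foxa2 was at 8.01 CPM, against 2.16 CPM in the other 2282, a log2 ratio of 1.89 (0.53 to 2.99) from 7 UMIs in 5 cells. T was at 1024 CPM in the cells with Shh and 1489 CPM in those without, a ratio of -0.54 (-0.64 to -0.45).

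The genes most like each factor across 34 units of cluster and age, by Pearson's r of log2(CPM + 1), followed the same division. For T they were the antitrypsin gene Serpina1e (r = 0.98), the keratins Krt19 (0.98) and Krt8 (0.97), the desmosomal cadherin Dsg2 (0.97) and Tmem163 (0.97). For Foxa1 they were Haao (0.91), Mlana (0.90), Tlr5 (0.89), T2 (0.89) and Perp (0.89). For Foxa2 they were Ppa1 (0.84), the cartilage genes Col9a3 (0.83) and Hapln1 (0.82), Dok1 (0.82) and M1ap (0.82). T had an r of 0.82 with Foxa1 and -0.16 with Foxa2, and Foxa2 had 0.76 with Foxa3. These are descriptions: the units share 2 libraries, and low counts limit r for Foxa1.

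Each list below was read in NP-like cells only. Of 15 further notochord and node genes, 7 had at least 100 UMIs in NP-like cells of both ages together. Among these 2 were past 2-fold higher at 8 weeks and 0 lower, where 15.2% of all genes were higher and 2.93% lower. Their median log2 ratio was 0.84, against 0.35 for all genes. NP-like cells held 43873511 gene UMIs at 8 weeks and 6837998 at P10, so genes found mainly at P10 tend to miss this minimum. The counts of lower genes in each list, and in all genes, carry this limit. Nog fell short of it with 19 UMIs at 8 weeks and 20 at P10, a log2 ratio of -2.76 (-3.74 to -1.77). Shh also fell short, at 0.75 (-0.56 to 2.43). Sox9, the master factor of cartilage that NP cells also use, was at 1395 CPM at 8 weeks and 640.4 CPM at P10, a log2 ratio of 1.12 (1.08 to 1.17), and Foxj1, the factor of motile cilia, was at 14.5 CPM at 8 weeks and 6.14 CPM at P10, a ratio of 1.24 (0.79 to 1.72). Relative to the median gene these were 0.77 and 0.88, under 2-fold. Sox6 was at 0.84, Chrd, which encodes the BMP antagonist chordin, at 0.62, Bicc1 at 0.40 and Sox5 at 0.38. Noto, the notochord homeobox gene, had 0 UMIs at both ages.

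Of 15 hedgehog pathway genes, 8 reached this minimum, with a median of 0.84, against 0.35. With the same limit on genes found mainly at P10, 3 of these were past 2-fold higher at 8 weeks and 0 lower, against 15.2% and 2.93% of all genes. The 3 were the co-receptor genes Gas1 (434.7 CPM at 8 weeks and 124.6 CPM at P10, log2 ratio 1.80) and Boc (28.2 CPM at 8 weeks and 9.21 CPM at P10, 1.61) and the inhibitor gene Sufu (7.29 CPM at 8 weeks and 2.92 CPM at P10, 1.32). Relative to the median gene, Gas1 (1.45) and Boc (1.26) stayed past 2-fold and Sufu (0.96) did not. The receptor gene and pathway target Ptch1 was at 21.2 CPM at 8 weeks and 19.6 CPM at P10, a ratio of 0.11 (-0.15 to 0.39). Disp1, Cdon and Smo were at 0.74, 0.94 and 0.64. The target gene Gli1 had 35 UMIs at 8 weeks and 18 at P10 and so fell short of it.

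Of 16 other T-box genes only Mga reached the minimum, at 74.8 CPM at 8 weeks and 42.6 CPM at P10 (log2 ratio 0.81), both far below T. Of 42 other forkhead genes 15 reached it, with a median of 0.58, against 0.35 for all genes. Of these 2 were past 2-fold higher at 8 weeks, Foxj1 and Foxn2 (1.01), a share near the 15.2% of all genes, and relative to the median gene both (0.88 and 0.65) were under 2-fold. The 1 gene of these past 2-fold lower, against 2.93% of all genes, was Foxc1 (5.54 CPM at 8 weeks and 11.1 CPM at P10). Under the minimum, Foxa3 was at -4.23 (-4.95 to -3.55), Foxp2 at -2.41 (-3.10 to -1.71) and Foxd2 at -0.56 (-1.52 to 0.54). For Foxa3, 53 of the 73 UMIs at P10 were in cells carrying markers of another class. The most abundant of the other forkhead genes in NP-like cells were Foxn3 (75.1 CPM at 8 weeks and 61.0 CPM at P10), Foxd1 (62.6 CPM at 8 weeks and 61.4 CPM at P10), Foxo1 (36.9 CPM at 8 weeks and 23.5 CPM at P10), Foxp1 (33.5 CPM at 8 weeks and 17.8 CPM at P10), Foxj3 (28.2 CPM at 8 weeks and 18.0 CPM at P10) and Foxk2 (27.7 CPM at 8 weeks and 18.6 CPM at P10). Each of these stood above Foxa1 and Foxa2 in CPM, a scale that follows molecules and not gene length in this kind of library. The last list held 14 genes, both epithelial genes and factors that work with FOXA factors in epithelia. Only Epcam, one of the epithelial genes, reached the minimum, at 9.96 CPM at 8 weeks and 4.09 CPM at P10 (log2 ratio 1.28, 0.73 to 1.89).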

How the data were processed

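Per the submitters' processing notes, the authors used Cell Ranger 3.1.0 and Seurat 3 and the build mm10. The authors deposited raw UMI counts per gene and cell, in a gene matrix and an exogenous-sequence matrix for each age, with lists of barcodes and feature names. Libraries cannot be split into the 8 samples, so no p-value was computed and depth limits precision as given by the intervals.

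Cells with at least 500 genes, 1000 UMIs and at most 15% mitochondrial UMIs were kept (6481 of 7597 at 8 weeks and 6999 of 7690 at P10). Scrublet in Scanpy 1.11.5 removed 138 and 7 of these. Leiden clustering used 2000 variable genes, 30 components, 15 neighbours and a resolution of 1, without batch correction, and gave 28 clusters; T, Foxa1, Foxa2 and the gene lists were left out. A cluster was named from at least 3 markers, each 2-fold higher than in all other cells and found in 25% of its cells. Where no class had 3, it was named chondrocyte if at least 8 chondrocyte markers were each found in 50% of its cells. Cluster 2 stayed unnamed because its leading genes hold more markers of another class, connective fibroblast. Intervals are exact Poisson (CPM), conditional binomial (ratios) and Clopper-Pearson (shares). Those of CPM and ratios were tested on data simulated with counting error only, which hold no variation between cells or libraries. Called means past 2-fold among genes with at least 100 UMIs over both sides of a comparison. Named genes are T, Foxa1 and Foxa2, up to 6 abundant members of each list, those past 2-fold, and the 5 genes most like each factor; others named were chosen after their values were seen. edgeR 4.0.16 gave TMM factors only. The genes and lists were chosen with earlier results of these data known, and the markers that define cells of another class were set after their values in NP-like cells were seen.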

Additional observations from a re-analysis of the deposited data

Results flagged for a closer look

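CRE, the Cre sequence in the exogenous reference, was used in no comparison above. It had 4 UMIs in kept cells at 8 weeks and 7 at P10, above the limit of 3 counts set for an undetected sequence. All 4 of the 8-week UMIs were in NP-like cells, and at P10 4 were in NP-like, 2 in chondrocyte-like and 1 in hypertrophic chondrocyte-like cells. No library without the Cre allele was analysed here.

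For 3 ratios within NP-like cells the sign differed between 8 weeks and P10; with 1 library per age these differences were not tested. Foxa2 in reporter-high over reporter-low cells was at -0.85 (log2) at 8 weeks and 0.39 at P10, where the P10 interval includes 0. The P10 sign turned with the definition: it was -0.94 by 1 TDT UMI, -0.63 by WPRE4 per 1000 UMIs and -0.68 without cells carrying other markers. T in cells with over cells without a Foxa1 UMI was at -0.12 at 8 weeks and 0.19 at P10. T in cells with over cells without a Foxa2 UMI was at -0.25 at 8 weeks and 0.14 at P10. The cells cannot be assigned to the 4 samples of an age, so no search for outlying samples was possible.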

How the results depend on the processing

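No paired analysis was possible because the cells of an age cannot be assigned to its samples, and no sample could be left out for the same reason. Depth limits Foxa1 and Foxa2 most, with 27 to 165 UMIs in NP-like cells. The sign of the ratio of NP-like to hypertrophic chondrocyte-like cells held in all 27 alternatives run over the 3 genes and both ages. The Foxa1 ratio of 8 weeks to P10 after thinning to 2000 UMIs gave no value, with 0 UMIs at P10 in that draw. Thinning draws UMIs at random, and the thinned ratios used other draws than the thinned shares. Counts of Foxa1 and Foxa2 after thinning therefore differ between the ratios and the shares. Resolution and strict filtering left the NP-like levels within their intervals. The cause of a change was not tested unless named here.

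T in NP-like cells at P10 was 1278 CPM with each library clustered on its own, 1351 CPM with the doublet limit of 0.25 and 1408 CPM without cells that carry other classes' markers; for Foxa2 at P10 the last 2 gave 4.42 and 3.06 CPM. The T ratio of 8 weeks to P10 turned to -0.18 with median-gene scaling, -0.15 with TMM, -0.055 within cluster 12 and -0.28 there without cells carrying other markers, and was 0.13 with the doublet limit, 0.31 with cells weighted equally, 0.083 without cells carrying other markers, 0.28 after thinning to 2000 UMIs and 0.30 within cluster 5. The Foxa1 ratio was 0.73 within cluster 5 and 1.36 there without such cells. The Foxa2 ratio was -0.96 with the doublet limit, -0.68 with equal weights, -0.46 without such cells, -3.09 within cluster 5, 0.11 (-2.79 to 5.58) after thinning and 0.36 in cluster 12 without such cells. The ratios within clusters, and those of reporter and co-detection without such cells, and the levels in blood cells and in other cells without cluster 2 given above, were added after seeing the data.

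Shares of NP-like cells with a UMI follow depth by construction. At full depth and at 5000 UMIs they were 99.7% and 99.5% for T at 8 weeks, 100% and 97.1% for T at P10, 6.30% and 1.44% for Foxa1 at 8 weeks, 6.21% and 2.51% for Foxa1 at P10, 3.48% and 1.24% for Foxa2 at 8 weeks, and 8.17% and 1.79% for Foxa2 at P10, where thinning to 2000 gave 0.408% and 0% for Foxa2 at 8 weeks and P10.

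Foxa2 in chondrocyte-like cells at 8 weeks was 2.39 CPM at resolution 0.5, 22.9 CPM at resolution 2, 19.97 CPM with separate clustering and 16.6 CPM with the doublet limit; at P10 it was 26.7, 22.7 and 19.8 CPM at resolutions 0.5 and 2 and the doublet limit. In hypertrophic chondrocyte-like cells of 8 weeks the 4 settings gave 38.9, 48.4, 40.9 and 78.7 CPM, and resolution 2 gave 102.2 CPM at P10. These classes hold other cells under each clustering. The NP-like to hypertrophic ratio at 8 weeks was, for T, 6.16 with separate clustering, 5.77 with the doublet limit and 6.81 without cells carrying other markers; for Foxa1, 3.097 at resolution 2 and 3.39 with separate clustering; and for Foxa2, -4.09 at resolution 0.5, -4.14 with separate clustering and -5.11 with the doublet limit. For Foxa2 at P10 it was -4.36 with the doublet limit and -4.92 without cells carrying other markers.

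The reporter ratio of T was -0.019 by TDT and 0.14 in cells with at least 10000 UMIs at 8 weeks, and 0.38 by TDT at P10. That of Foxa2 at P10 was -0.94 by TDT, -0.63 by WPRE4 per 1000 UMIs and -0.68 without cells carrying other markers. T in P10 cells with over without a Foxa2 UMI was 0.40 without such cells. Levels in other classes stayed within their intervals in 165 of 195 alternatives, not counting Foxa2 in chondrocyte-like and hypertrophic chondrocyte-like cells. Over the remaining results, these Foxa2 levels included, 104 alternatives lay within the main interval and 56 outside it. A further 7 turned the sign of a ratio whose main interval excluded 0.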
